A study of Homo sapiens with 12 samples.

Results

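Translation initiation and elongation factors are the proteins that bring an mRNA and its first tRNA to the ribosome and then move the ribosome along the message. Left out by symbol were the eIF2 kinases, the eIF4E-binding proteins, the eEF1A lysine methyltransferases of the EEF1AKMT series, the eEF2 kinase and the eEF2 methyltransferase EEF2KMT. The factors were taken as the other 58 genes, of 20289 in the count table, whose symbol starts with EIF1 to EIF6, EEF1 or EEF2. Their RNA was measured by poly(A) RNA-seq in U251, a long-established line of human glioblastoma cells, with 12 libraries that fall into 4 groups of 3. Knockdown temozolomide cells carried a short hairpin RNA that targets CD44, a receptor at the cell surface that binds hyaluronan. They were given temozolomide, which alkylates DNA and is used to treat glioblastoma, at 50 µM for 24 h. Control temozolomide cells carried a control hairpin and received the same drug for 24 h. Knockdown DMSO and control DMSO cells carried the CD44 and the control hairpin and received the solvent DMSO for 24 h. All groups are the same cell line, and the libraries of each group are numbered 1 to 3.

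In initiation, eIF2 carries the first tRNA to the small ribosomal subunit as a complex with GTP and is recharged by eIF2B, while eIF1, eIF1A and eIF5 govern the choice of the start codon and eIF5B the joining of the large subunit. The eIF4 group binds the mRNA cap (eIF4E), bridges it to the ribosome (eIF4G) and unwinds the leader (the helicase eIF4A with its partners eIF4B and eIF4H), and eIF3 is the large scaffold that holds these parts on the small subunit. In elongation, eEF1A brings each further tRNA, the eEF1B subunits recharge it, eEF2 moves the ribosome by one codon, and eIF5A, which carries the modified amino acid hypusine, helps at stretches that are slow to join. Many of these mRNAs, eEF1A and eEF2 among them, are known as 5′ terminal oligopyrimidine (TOP) mRNAs: they start with a C and a run of pyrimidines, the feature through which mTOR and LARP1 set their translation and stability.

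The annotated starts of the members are shown for the mRNAs on which the results turn, because the members with such a start and those without it are compared further on. Each line is 30 bases of the transcribed strand, 15 before the annotated start and 15 from it on, from RefSeq (GRCh38.p14), and the capitals mark the run of pyrimidines that begins at the start. The first 8 have a C at the start followed by at least 4 pyrimidines, and the last 4 have not.
EEF1A1 (chr6:73521018-73521047, minus strand): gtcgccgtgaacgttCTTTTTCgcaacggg
EEF2 (chr19:3985449-3985478, minus strand): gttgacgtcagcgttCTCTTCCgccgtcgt
EIF4B (chr12:53006441-53006470, plus strand): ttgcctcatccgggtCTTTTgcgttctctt
EIF4A2 (chr3:186783562-186783591, plus strand): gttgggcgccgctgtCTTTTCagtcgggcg
EIF3K (chr19:38619173-38619202, plus strand): ttccgtttccaccacCTCTTCCTgttcccg
EIF3F (chr11:7987322-7987351, plus strand): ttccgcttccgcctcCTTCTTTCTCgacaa
EIF3D (chr22:36529152-36529181, minus strand): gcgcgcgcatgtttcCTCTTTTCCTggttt
EIF2S3 (chrX:24054941-24054970, plus strand): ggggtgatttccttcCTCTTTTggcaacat
EEF1G (chr11:62573877-62573906, minus strand): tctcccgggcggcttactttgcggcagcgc
EIF5A2 (chr3:170908623-170908652, minus strand): cccgccccgtctcttggaactgccgcggcc
EIF1 (chr17:41688870-41688899, plus strand): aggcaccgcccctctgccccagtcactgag
EIF1AX (chrX:20141824-20141853, minus strand): gcaaagagtcgcggcgccatttgctgccgc

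Library totals ran from 13506946 to 24757977 estimated counts, and no 2 libraries held identical counts. Nothing in the labels states that libraries of 1 group came from separate cultures, so p-values measure only the spread between these libraries, which may be technical. CD44 itself was at 319.8, 326 and 333 CPM (counts scaled to library depth, here with TMM factors) in knockdown temozolomide libraries, 851, 808 and 804 in control temozolomide libraries, 421, 419 and 419 in knockdown DMSO libraries and 1127, 1102 and 1043 in control DMSO libraries, which follows the hairpin labels. Of 9 glial or neural lineage markers 7 passed the low-count filter, with VIM, SOX2, NES and EGFR detected in every library, while OLIG2 was at 0 in 11 of 12 libraries and GFAP at 0.14 to 1.18 FPKM. The 9 markers, of which CD44 is the target of the hairpin, summed to 1961 to 2080 FPKM in knockdown temozolomide, 1844 to 1945 in control temozolomide, 2334 to 2368 in knockdown DMSO and 2315 to 2436 in control DMSO libraries. Without CD44 the other 8 summed to 1851 to 1964, 1527 to 1610, 2200 to 2230 and 1900 to 1994 FPKM in the same order of groups. Their members went different ways with knockdown: NES, EGFR and VIM rose by 0.86, 0.37 and 0.19 (log2) under DMSO and by 0.73, 0.44 and 0.32 under temozolomide, while SOX2 changed by -0.42 and -0.54, all called. Of 4 immune markers CD3E and AIF1 were at 0 in every library, and their sum, nearly all from CD68, was higher in the knockdown groups, at 18.2 to 18.9 FPKM in knockdown temozolomide against 10.1 to 10.9 in control temozolomide, and 16.5 to 18.3 in knockdown DMSO against 8.86 to 12.8 in control DMSO. The 3 endothelial markers, nearly all CDH5, summed to 3.47 to 3.72 FPKM in knockdown temozolomide, 5.41 to 6.53 in control temozolomide, 7.51 to 7.72 in knockdown DMSO and 11.02 to 12.21 in control DMSO libraries, and CDH5 fell in all 4 comparisons. PECAM1, at 0.02 to 0.36 FPKM, went the other way with knockdown. It rose by 2.05 (log2, edgeR adjusted p = 0.00252) under temozolomide and was at 0.99 (edgeR adjusted p = 0.0787) under DMSO. The 3 epithelial markers, nearly all KRT18, summed to 78.5 to 93.1, 103.4 to 106.2, 96.6 to 103.4 and 119.2 to 130.6 FPKM in the same order, and KRT18 also fell in all 4. The defining markers VWF, EPCAM and CDH1 were at or under 0.15 FPKM in every library, and 3 neuron markers summed to 0.17 to 0.36 FPKM. The difference in median log2 level between genes of over 60% and under 40% GC content, each gene set against its own mean, was -0.12 to 0.08 in knockdown temozolomide, -0.13 to 0.04 in control temozolomide, -0.08 to -0.03 in knockdown DMSO and 0.07 to 0.22 in control DMSO libraries. The part of the markers in the results was not tested, and values corrected for GC content are given with the results.

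Of the 58 members 54 passed the low-count filter. EIF4E1B, EIF1AY and the readthrough transcript EEF1E1-BLOC1S5 had no count in any library, and EIF5AL1 had 0 to 5 counts. Per transcript length, in FPKM, EEF1A1 stood first with a median of 5122 over the 12 libraries and a range from 4604 to 5655. It was followed by the eEF1B subunit gene EEF1G (1051), the helicase gene EIF4A1 (879), EEF2 (847) and EIF5A (416). The ranges of EIF4A1, at 842 to 976 FPKM, and EEF2, at 772 to 955 FPKM, overlapped. Among the cap-binding proteins EIF4E had a median of 58.2 FPKM, EIF4E2 45.7 and EIF4E3 6.97. EEF1A2, the copy of eEF1A used by neurons and muscle, was near the bottom at a median of 0.555 FPKM, with EIF2S3B and EIF3CL, which are close copies of EIF2S3 and EIF3C. Reads of such copies can be assigned to either gene, so the values of EIF3C and EIF3CL, EIF2S3 and EIF2S3B, EIF5A and EIF5AL1, EIF1AX and EIF1AY, and EEF1A1 with its processed copies are uncertain to that extent.

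**Figure D1:**
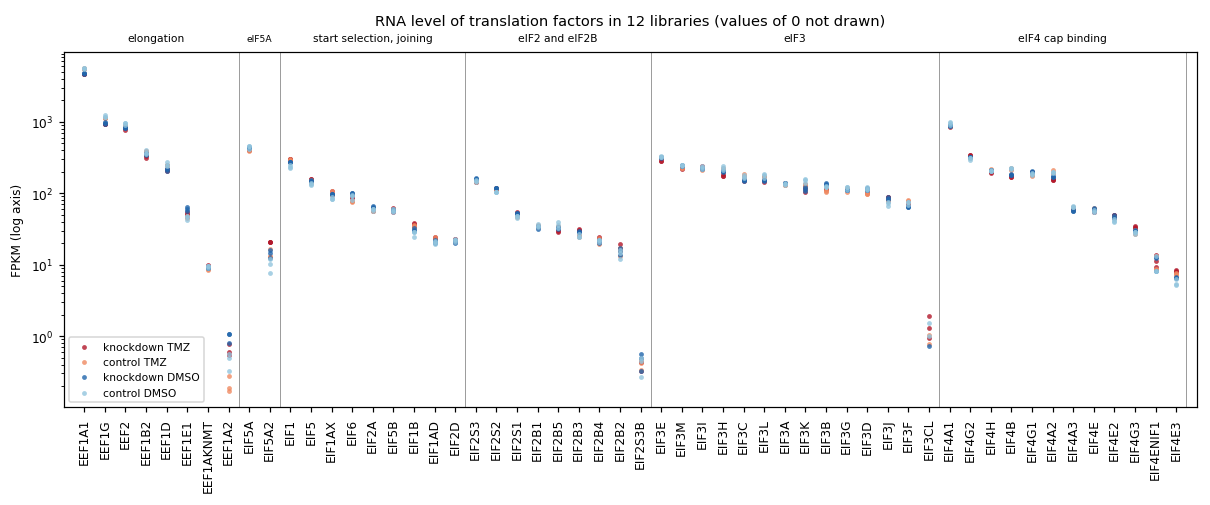
FPKM (log axis) of the 54 tested members in each of the 12 libraries, ordered by role and by median level; each point is 1 library, coloured by group. EEF1A1 stood at the top with a median of 5122 FPKM and EIF2S3B, EEF1A2 and EIF3CL at the bottom; values of 0 are not drawn.

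Knockdown against control changed more members down than up under both treatments. Under DMSO 29 of 54 were called, against 42.6% of all 12821 tested genes: 10 rose (18.5%) and 19 fell (35.2%), against 21.1% and 21.4%. Under temozolomide 27 of 54 were called, against 42.3% of all tested genes: 10 rose (18.5%) and 17 fell (31.5%), against 22% and 20.3% of all tested genes. Temozolomide against DMSO also moved members mostly down. In control cells 28 of 54 were called, against 27.5% of all tested genes: 6 rose (11.1%) and 22 fell (40.7%), against 11.7% and 15.8%. In knockdown cells 25 of 54 were called, against 22.3% of all tested genes: 2 rose (3.70%) and 23 fell (42.6%), against 9.05% and 13.2%. The changes were small, with a median log2 fold change over the 54 members of -0.03 and -0.01 for knockdown under DMSO and temozolomide, and of -0.09 and -0.07 for temozolomide in control and knockdown cells, where all tested genes had medians between -0.0040 and 0.0083. The groups did not overlap for 32 members in knockdown under DMSO (51.3% of all tested genes), 29 in knockdown under temozolomide (50.8%), 34 in temozolomide in control cells (39.7%) and 33 in temozolomide in knockdown cells (37.2%). They lay lower without overlap for 17, 17, 27 and 25 members in the same order of comparisons, against 25.5%, 24.4%, 21.6% and 19.8% of all tested genes, and higher for 15, 12, 7 and 8, against 25.8%, 26.4%, 18.1% and 17.5%. Calls were made with edgeR's quasi-likelihood test at a threshold of 0.05 after Benjamini-Hochberg adjustment over all tested genes; every adjusted p that follows comes from it, and fold changes are log2 values. In bulk RNA, fewer cells with a transcript and less of it per cell cannot be told apart.

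The split between rises and falls of the members depended on the scaling. The median of all tested genes shifted too, by 0.04 to 0.0668 (log2) on library totals alone. With the GC and length correction it shifted by -0.0352 to 0.0172. Shares of all tested genes are not given for these settings, so the counts and kept calls below have no background beside them. With library totals as the only scaling, members that rose and fell numbered 18 and 14 in knockdown under DMSO, 11 and 12 in knockdown under temozolomide, 9 and 10 in temozolomide in control cells, and 8 and 11 in temozolomide in knockdown cells. On log2(FPKM + 1) values with limma the same counts were 16 and 13, 9 and 16, 8 and 5, and 5 and 5. After correction for GC content and length they were 9 and 22, 10 and 19, 5 and 26, and 6 and 23. Of the 19 falls with knockdown under DMSO 12 were kept with library totals, GC and length correction, FPKM, DESeq2 and each single library left out, and of the 17 under temozolomide 12. Of the falls with temozolomide 5 of 22 in control cells and 5 of 23 in knockdown cells were kept throughout.

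**Figure D2:**
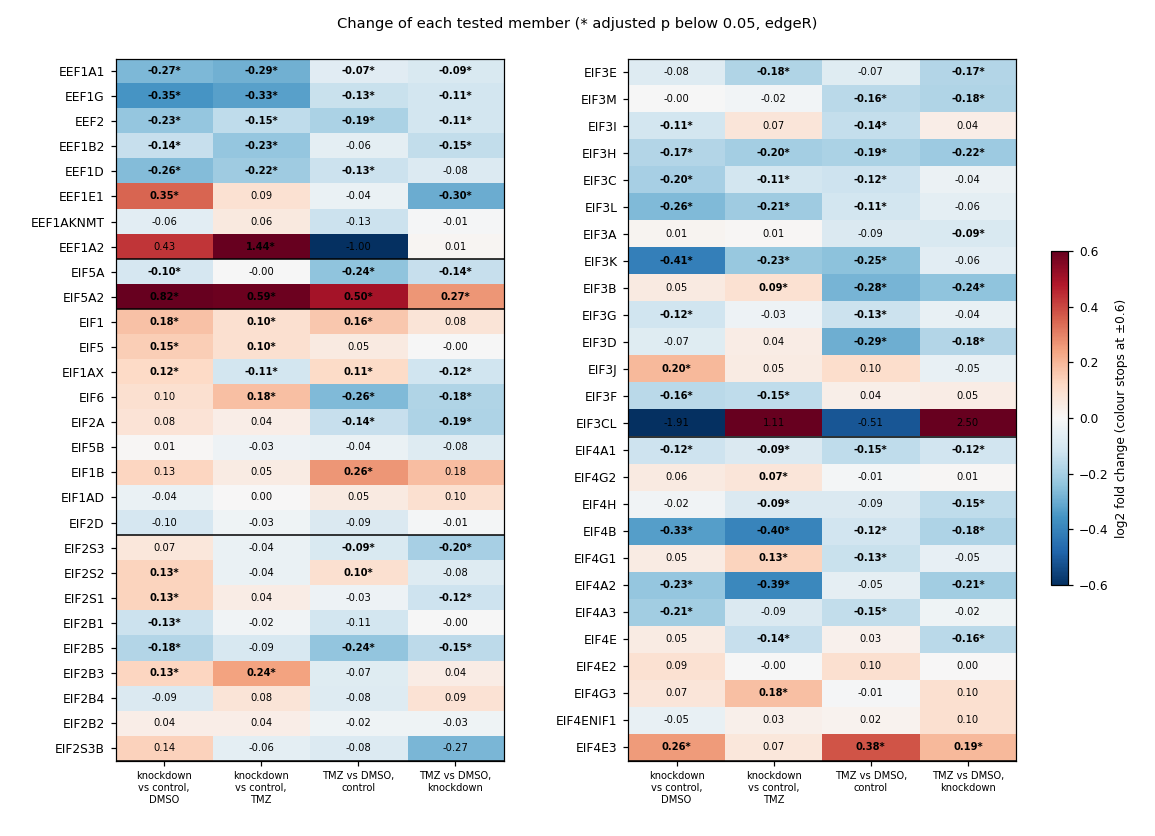
Log2 fold change of each of the 54 tested members in 4 comparisons (columns), by role and with black lines between roles; colour stops at 0.6 either way, and a star marks an adjusted p below 0.05 in edgeR. EEF1A1, EEF1G, EEF2, EIF3H, EIF4A1 and EIF4B carry a star for a fall in all 4 columns and EIF5A2 for a rise in all 4.

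Of the 8 tested genes with an EEF symbol, EEF1E1 and EEF1AKNMT included, 5 fell with the knockdown under DMSO and again under temozolomide. These were EEF1A1, EEF1B2, EEF1D, EEF1G and EEF2, and 21.4% and 20.3% of all tested genes fell. EEF1A1, which delivers tRNA to the ribosome, was at 8202, 8037 and 8145 CPM in knockdown temozolomide and 9928, 9838 and 10050 CPM in control temozolomide libraries, and at 8747, 8714 and 8477 CPM in knockdown DMSO and 10440, 10240 and 10600 CPM in control DMSO libraries. Every knockdown library lay below every control library. The log2 fold change with knockdown was -0.27 (SE 0.024, adjusted p = 8.69e-09) under DMSO and -0.29 (SE 0.024, adjusted p = 3.03e-09) under temozolomide. EEF1G, the gamma subunit of the complex that recharges eEF1A, was at 1312, 1300 and 1284 CPM in knockdown temozolomide against 1614, 1640 and 1638 CPM in control temozolomide, and at 1424, 1416 and 1360 CPM in knockdown DMSO against 1772, 1748 and 1842 CPM in control DMSO libraries. It changed by -0.35 (SE 0.029, adjusted p = 3.23e-09) under DMSO and -0.33 (SE 0.029, adjusted p = 9.73e-09) under temozolomide, the largest fall among the elongation factors in both. EEF2, the translocase, was at 2461, 2480 and 2365 CPM in knockdown temozolomide against 2776, 2700 and 2637 CPM in control temozolomide, and at 2609, 2713 and 2558 CPM in knockdown DMSO against 3114, 3001 and 3126 CPM in control DMSO libraries. Knockdown and control libraries did not overlap here either. Its change with knockdown was -0.23 (SE 0.03, adjusted p = 3.21e-06) under DMSO and -0.15 (SE 0.03, adjusted p = 0.000402) under temozolomide. EEF1D, the delta subunit, fell by 0.26 under DMSO and by 0.22 under temozolomide (log2, adjusted p = 4.66e-05 and 0.000391). EEF1B2, the beta subunit, changed by -0.14 (adjusted p = 0.0207) under DMSO and -0.23 (adjusted p = 0.000405) under temozolomide.

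EEF1A2 and EEF1E1 rose in 1 knockdown comparison each. EEF1A2 was at 1.20, 0.956 and 0.646 CPM in knockdown temozolomide against 0.281, 0.484 and 0.293 CPM in control temozolomide libraries, and at 0.799, 0.983 and 1.02 CPM in knockdown DMSO against 0.526, 0.730 and 0.822 CPM in control DMSO libraries, where 3 counts correspond to 0.121 to 0.222 CPM. In CPM the groups were apart under temozolomide and overlapped under DMSO. In FPKM they were apart under DMSO too, at 0.80 to 1.06 in knockdown and 0.32 to 0.56 in control libraries. EEF1A2 rose with knockdown under temozolomide by 1.44 (SE 0.39, adjusted p = 0.00535), and under DMSO its change was 0.43 (adjusted p = 0.36). At these levels it stayed far under 1% of EEF1A1. EEF1E1 is named like an elongation factor but is known as a scaffold protein of the complex of tRNA synthetases. It was at 60.1, 52.5 and 54.6 CPM in knockdown DMSO against 42.9, 41.7 and 46.2 CPM in control DMSO libraries, a rise of 0.35 (SE 0.058, adjusted p = 4.55e-05). Under temozolomide it was at 43.5, 45.1 and 47.4 CPM in knockdown and 42.7, 40.7 and 43.8 CPM in control libraries, with a log2 fold change of 0.09 (adjusted p = 0.211). EEF1AKNMT, a methyltransferase of eEF1A that the symbol rule also takes in, was called in none of the comparisons. EEF1A1 with knockdown under DMSO lost its call on log2(FPKM + 1) without a filter (-0.23). EEF1B2 with knockdown under DMSO lost its call on library totals alone (-0.10), on log2(FPKM + 1) (-0.07) and without control DMSO 3 (-0.08) or knockdown DMSO 2 (-0.13) or 3 (-0.12). EEF1A1 with knockdown under temozolomide lost its call on log2(FPKM + 1) without a filter (-0.25). EEF1A2 with knockdown under temozolomide was still called at 0.44 on log2(FPKM + 1).

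With temozolomide 4 of the 8 tested EEF genes fell and 0 rose in control cells, where 15.8% of all tested genes fell. In knockdown cells, where 13.2% of all tested genes fell, 5 of the 8 fell, EEF1E1 among them, and 0 rose. On library totals alone, and on log2(FPKM + 1), 1 of the 8 fell in either background. EEF2 changed by -0.19 (SE 0.03, adjusted p = 9.98e-05) in control cells and by -0.11 (SE 0.03, adjusted p = 0.0133) in knockdown cells. EEF1G changed by -0.13 (adjusted p = 0.00156) in control and -0.11 (adjusted p = 0.00995) in knockdown cells, and EEF1A1 by -0.07 (adjusted p = 0.0333) and -0.09 (adjusted p = 0.00926). EEF1D fell in control cells, at -0.13 (adjusted p = 0.0286). EEF1B2, at -0.15 (adjusted p = 0.0258), and EEF1E1, at -0.30 (SE 0.057, adjusted p = 0.000655), fell in knockdown cells. EEF1A1 with temozolomide in control cells lost its call on library totals alone (-0.00), on log2(FPKM + 1) (-0.00) and without any 1 of control DMSO 1 and 3 and control temozolomide 1 and 2 (-0.07 to -0.05). EEF1D with temozolomide in control cells lost its call on library totals alone (-0.06), after GC and length correction (-0.03), on log2(FPKM + 1) (-0.05) and without any 1 of control DMSO 1 and 3 and control temozolomide 2 and 3 (-0.13 to -0.07). EEF1G with temozolomide in control cells lost its call on library totals alone (-0.07) and on log2(FPKM + 1) (-0.07), and was still called at -0.08 after GC and length correction. EEF2 with temozolomide in control cells was still called at -0.12 on library totals alone, -0.10 after GC and length correction and -0.12 on log2(FPKM + 1). EEF1A1 with temozolomide in knockdown cells lost its call on library totals alone (-0.03) and on log2(FPKM + 1) (-0.03). EEF1B2 with temozolomide in knockdown cells lost its call on library totals alone (-0.09), on log2(FPKM + 1) (-0.10) and without knockdown DMSO 1 (-0.13) or knockdown temozolomide 2 (-0.10). EEF1E1 with temozolomide in knockdown cells lost its call on log2(FPKM + 1) without a filter (-0.20). EEF1G with temozolomide in knockdown cells lost its call on library totals alone (-0.05) and on log2(FPKM + 1) (-0.05). EEF2 with temozolomide in knockdown cells lost its call on library totals alone (-0.05), on log2(FPKM + 1) (-0.05) and without knockdown DMSO 2 (-0.09) or knockdown temozolomide 3 (-0.09).

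The 2 tested genes for eIF5A moved apart. EIF5A2, the less expressed form, rose in every comparison of 2 groups. It was at 56.8, 64.7 and 65.0 CPM in knockdown temozolomide, 41.1, 41.0 and 42.1 CPM in control temozolomide, 49.9, 52.2 and 53.0 CPM in knockdown DMSO and 29.7, 30.7 and 27.6 CPM in control DMSO libraries, and no 2 of the 4 groups overlapped. With knockdown it rose by 0.82 (SE 0.06, adjusted p = 6.72e-10) under DMSO, which is 1.77-fold, and by 0.59 (SE 0.055, adjusted p = 2.55e-08) under temozolomide. With temozolomide it rose by 0.50 (SE 0.061, adjusted p = 3.89e-06) in control cells and by 0.27 (SE 0.054, adjusted p = 0.0013) in knockdown cells. EIF5A, the common form, was at 475, 471 and 470.4 CPM in knockdown temozolomide, 491, 469 and 458 CPM in control temozolomide, 514, 537 and 509 CPM in knockdown DMSO and 572, 527 and 576 CPM in control DMSO libraries. All 6 temozolomide libraries lay below all 6 DMSO libraries. With temozolomide it changed by -0.24 (SE 0.037, adjusted p = 5.54e-05) in control cells and by -0.14 (adjusted p = 0.0092) in knockdown cells. With knockdown it changed by -0.10 (adjusted p = 0.0289) under DMSO, and under temozolomide the value was -0.00 (adjusted p = 0.96). Of the 2 enzymes that make hypusine, DHPS changed with knockdown under DMSO by -0.19 (adjusted p = 0.0177) and DOHH by 0.31 (adjusted p = 0.0496). Under temozolomide DHPS was at -0.05 (adjusted p = 0.545) and DOHH at 0.44 (adjusted p = 0.00712). EIF5A with knockdown under DMSO lost its call on library totals alone (-0.06), after GC and length correction (-0.01), on log2(FPKM + 1) (-0.04) and without any 1 of control DMSO 1 and 3 and knockdown DMSO 1 and 3 (-0.10 to -0.08). EIF5A2 with knockdown under DMSO was still called at 0.49 on log2(FPKM + 1). EIF5A with temozolomide in control cells was still called at -0.15 after GC and length correction and -0.15 on log2(FPKM + 1). EIF5A2 with temozolomide in control cells lost its call on log2(FPKM + 1) without a filter (0.47). EIF5A with temozolomide in knockdown cells lost its call on library totals alone (-0.08) and on log2(FPKM + 1) (-0.09). EIF5A2 with temozolomide in knockdown cells lost its call on log2(FPKM + 1) without a filter (0.51), and was still called at 0.51 on log2(FPKM + 1). DHPS with knockdown under DMSO lost its call on library totals alone (-0.15), after GC and length correction (-0.08), in DESeq2 (-0.19) and without control DMSO 3 (-0.18) or knockdown DMSO 2 (-0.18) or 3 (-0.13). DOHH with knockdown under DMSO lost its call on log2(FPKM + 1) (0.26), in DESeq2 (0.31) and without any 1 of control DMSO 1 and 2 and knockdown DMSO 1, 2 and 3 (0.22 to 0.35), and was still called at 0.46 after GC and length correction. DOHH with knockdown under temozolomide lost its call without knockdown temozolomide 1 (0.33).

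**Figure D3:**
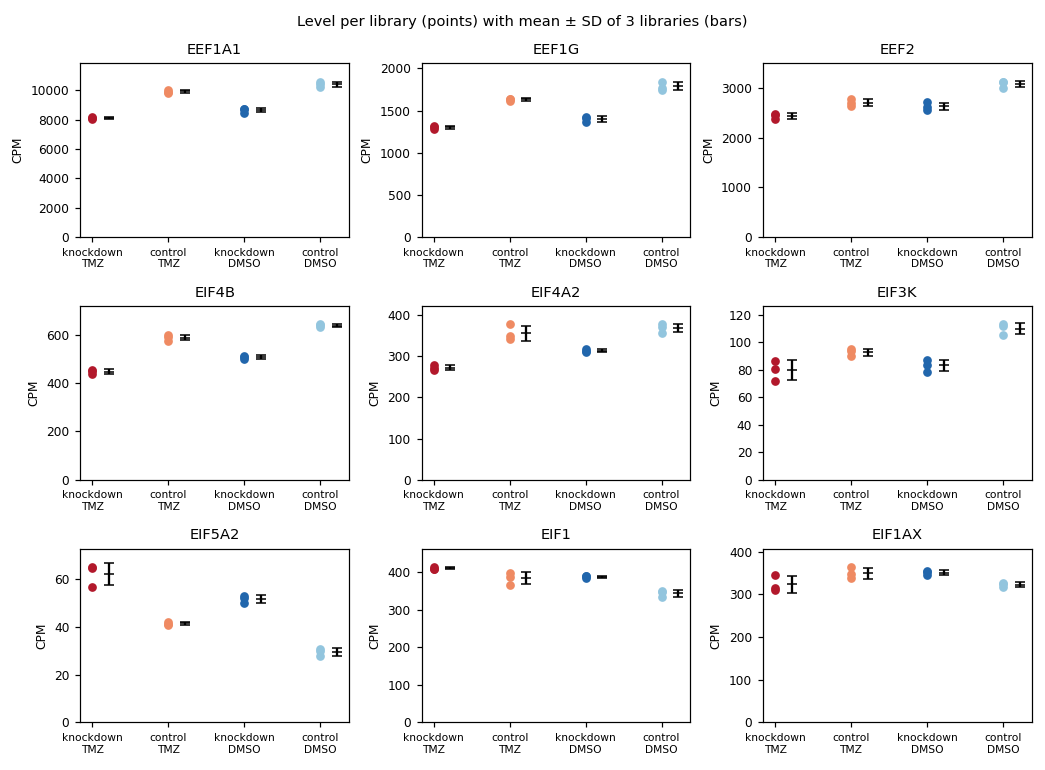
Level of 9 members in each library, in TMM-scaled CPM on axes from 0, by group; points are libraries and bars the mean ± SD of 3. EEF1A1, EEF1G, EEF2, EIF4B, EIF4A2 and EIF3K lie lower in both knockdown groups than in the control group of the same treatment, EIF5A2 and EIF1 lie higher, and EIF1AX is higher in knockdown under DMSO and overlaps under temozolomide.

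In the eIF4 group, EIF4B and EIF4A2 had the largest falls with knockdown. EIF4B, the cofactor that stimulates the eIF4A helicase, was at 435, 449 and 455 CPM in knockdown temozolomide against 575, 592 and 596 CPM in control temozolomide, and at 499.9, 513 and 508 CPM in knockdown DMSO against 631, 639 and 642 CPM in control DMSO libraries. The groups were apart under both treatments, with changes of -0.33 (SE 0.03, adjusted p = 1.57e-08) under DMSO and -0.40 (SE 0.03, adjusted p = 1.06e-09) under temozolomide. EIF4A2, the second form of the helicase, was at 266, 272 and 279 CPM in knockdown temozolomide against 348, 342 and 378 CPM in control temozolomide, and at 319, 311 and 313 CPM in knockdown DMSO against 357, 372 and 378 CPM in control DMSO libraries. Knockdown libraries lay lower without overlap under both treatments. It changed by -0.23 (SE 0.038, adjusted p = 3.75e-05) under DMSO and -0.39 (SE 0.038, adjusted p = 4.19e-08) under temozolomide. EIF4A1, the main form, changed by -0.12 (adjusted p = 0.00134) and -0.09 (adjusted p = 0.0165). EIF4A3, the form of the exon junction complex, changed by -0.21 (adjusted p = 0.00084) under DMSO and -0.09 (adjusted p = 0.131) under temozolomide.

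The cap-binding and scaffold genes changed by at most 0.26 (log2) with knockdown. EIF4E, the cap-binding protein, changed with knockdown by 0.05 (adjusted p = 0.356) under DMSO, and by -0.14 (adjusted p = 0.0116) under temozolomide. EIF4G1, the main scaffold, changed by 0.05 (adjusted p = 0.22) under DMSO and by 0.13 (adjusted p = 0.00164) under temozolomide. EIF4G3, its paralogue, was at 166, 172 and 181 CPM in knockdown temozolomide against 145, 156 and 158 CPM in control temozolomide libraries, without overlap, and rose by 0.18 (SE 0.041, adjusted p = 0.00142). EIF4G2, which lacks the part that binds eIF4E, rose by 0.07 (adjusted p = 0.0437). EIF4H, a relative of eIF4B in function, changed by -0.09 (adjusted p = 0.0359). EIF4E3, a minor cap-binding form, rose with knockdown under DMSO by 0.26 (adjusted p = 0.0037). EIF4A1 with knockdown under DMSO lost its call on log2(FPKM + 1) without a filter (-0.10). EIF4E3 with knockdown under DMSO lost its call after GC and length correction (0.11) and on log2(FPKM + 1) (0.18). EIF4A1 with knockdown under temozolomide lost its call on library totals alone (-0.05), on log2(FPKM + 1) (-0.04) and without control temozolomide 1 (-0.08) or knockdown temozolomide 2 (-0.08). EIF4E with knockdown under temozolomide lost its call on library totals alone (-0.10) and without control temozolomide 3 (-0.11) or knockdown temozolomide 2 (-0.11). EIF4G1 with knockdown under temozolomide lost its call after GC and length correction (0.05). EIF4G2 with knockdown under temozolomide lost its call after GC and length correction (0.05), in DESeq2 (0.06) and without any 1 of control temozolomide 1, 2 and 3 and knockdown temozolomide 2 and 3 (0.06 to 0.08). EIF4G3 with knockdown under temozolomide was still called at 0.11 after GC and length correction. EIF4H with knockdown under temozolomide lost its call on library totals alone (-0.05) and without any 1 of control temozolomide 1 and 2 and knockdown temozolomide 1 and 2 (-0.09 to -0.07).

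With temozolomide EIF4E3 had the largest change of the eIF4 group in control cells, and EIF4A2 in knockdown cells. EIF4E3 was at 29.6, 30.6 and 31.0 CPM in knockdown temozolomide and 29.0, 28.0 and 29.9 CPM in control temozolomide libraries, against 27.1, 25.6 and 27.1 CPM in knockdown DMSO and 24.1, 21.8 and 21.0 CPM in control DMSO libraries. In both hairpin backgrounds the temozolomide libraries lay above the DMSO libraries. In control cells EIF4E3 rose by 0.38 (SE 0.065, adjusted p = 0.000174) and in knockdown cells by 0.19 (adjusted p = 0.0328). EIF4A2 changed by -0.21 (SE 0.038, adjusted p = 0.000437) with temozolomide in knockdown cells and by -0.05 (adjusted p = 0.331) in control cells, and the difference between the 2 responses was -0.16 (adjusted p = 0.129). EIF4B changed by -0.12 (adjusted p = 0.00552) in control and -0.18 (adjusted p = 0.000143) in knockdown cells, EIF4A1 by -0.15 (adjusted p = 0.000461) and -0.12 (adjusted p = 0.00607). EIF4G1 fell in control cells, -0.13 (adjusted p = 0.00284), and was at -0.05 (adjusted p = 0.274) in knockdown cells. EIF4E was at 0.03 (adjusted p = 0.702) in control cells and fell in knockdown cells, -0.16 (adjusted p = 0.00828). EIF4H also fell in knockdown cells, -0.15 (adjusted p = 0.00177), and EIF4A3 in control cells, -0.15 (adjusted p = 0.0191). EIF4E2, a cap-binding form known as a repressor, and EIF4ENIF1, which shuttles eIF4E into the nucleus, were called in none of the comparisons of 2 groups. EIF4A1 with temozolomide in control cells lost its call on log2(FPKM + 1) (-0.10), and was still called at -0.08 on library totals alone. EIF4A3 with temozolomide in control cells lost its call on library totals alone (-0.08), on log2(FPKM + 1) (-0.08) and without control DMSO 1 (-0.12) or control temozolomide 3 (-0.10). EIF4B with temozolomide in control cells lost its call on library totals alone (-0.05) and on log2(FPKM + 1) (-0.01). EIF4G1 with temozolomide in control cells lost its call on library totals alone (-0.07), after GC and length correction (-0.04) and on log2(FPKM + 1) (-0.06). EIF4A1 with temozolomide in knockdown cells lost its call on library totals alone (-0.05) and on log2(FPKM + 1) (-0.04). EIF4A2 with temozolomide in knockdown cells lost its call on log2(FPKM + 1) without a filter (-0.14). EIF4B with temozolomide in knockdown cells lost its call on log2(FPKM + 1) (-0.09), and was still called at -0.12 on library totals alone. EIF4E with temozolomide in knockdown cells lost its call on library totals alone (-0.10), on log2(FPKM + 1) (-0.10) and without knockdown temozolomide 2 (-0.14). EIF4E3 with temozolomide in knockdown cells lost its call in DESeq2 (0.18) and without any 1 of knockdown DMSO 1, 2 and 3 and knockdown temozolomide 2 and 3 (0.16 to 0.20). EIF4H with temozolomide in knockdown cells lost its call on log2(FPKM + 1) (-0.10), and was still called at -0.09 on library totals alone.

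Of the 14 tested eIF3 genes 7 fell and 1 rose with knockdown under DMSO, and 6 fell and 1 rose under temozolomide. Of all tested genes 21.4% fell and 21.1% rose under DMSO, and 20.3% fell and 22% rose under temozolomide. EIF3K, a peripheral subunit, was at 86.0, 71.8 and 80.5 CPM in knockdown temozolomide against 89.8, 94.7 and 93.6 CPM in control temozolomide, and at 87.0, 83.3 and 78.5 CPM in knockdown DMSO against 111, 105 and 113 CPM in control DMSO libraries. Its groups did not overlap, and it changed by -0.41 (SE 0.054, adjusted p = 3.47e-06) under DMSO, the largest called fall among all members in that comparison, and by -0.23 (SE 0.055, adjusted p = 0.00213) under temozolomide. EIF3L, which sits beside eIF3k, was at 278, 283 and 269.6 CPM in knockdown temozolomide against 316, 321 and 327 CPM in control temozolomide, and at 288, 288 and 290.1 CPM in knockdown DMSO against 343, 346 and 352 CPM in control DMSO libraries. Its groups did not overlap either. It changed by -0.26 (SE 0.031, adjusted p = 7.33e-07) under DMSO and -0.21 (SE 0.031, adjusted p = 1.29e-05) under temozolomide. EIF3H changed by -0.17 (adjusted p = 0.000111) and -0.20 (adjusted p = 2.21e-05), EIF3C, a core subunit, by -0.20 (adjusted p = 4.11e-05) and -0.11 (adjusted p = 0.00837), and EIF3F by -0.16 (adjusted p = 0.0067) and -0.15 (adjusted p = 0.00943). EIF3E fell under temozolomide, -0.18 (adjusted p = 0.000235), and was at -0.08 (adjusted p = 0.0746) under DMSO. EIF3J, a loosely bound subunit, rose under DMSO by 0.20 (SE 0.042, adjusted p = 0.000739) and was at 0.05 (adjusted p = 0.378) under temozolomide. EIF3B rose under temozolomide by 0.09 (adjusted p = 0.0217). EIF3G, at -0.12 (adjusted p = 0.047), and EIF3I, at -0.11 (adjusted p = 0.0164), fell under DMSO. EIF3C with knockdown under DMSO lost its call on log2(FPKM + 1) without a filter (-0.16). EIF3F with knockdown under DMSO lost its call without control DMSO 1 (-0.12), and was still called at -0.27 after GC and length correction. EIF3G with knockdown under DMSO lost its call on library totals alone (-0.08), after GC and length correction (0.01), on log2(FPKM + 1) (-0.08), in DESeq2 (-0.12) and without any 1 of control DMSO 1 and 3 and knockdown DMSO 1, 2 and 3 (-0.13 to -0.09). EIF3H with knockdown under DMSO lost its call on log2(FPKM + 1) without a filter (-0.14), and was still called at -0.26 after GC and length correction. EIF3I with knockdown under DMSO lost its call on library totals alone (-0.07), after GC and length correction (-0.07), on log2(FPKM + 1) (-0.07) and without control DMSO 3 (-0.08) or knockdown DMSO 3 (-0.09). EIF3B with knockdown under temozolomide lost its call after GC and length correction (0.02), on log2(FPKM + 1) (0.09) and without any 1 of control temozolomide 2 and 3 and knockdown temozolomide 1 and 2 (0.08 to 0.09). EIF3C with knockdown under temozolomide lost its call on library totals alone (-0.07), and was still called at -0.18 after GC and length correction and -0.20 on log2(FPKM + 1). EIF3E with knockdown under temozolomide was still called at -0.11 after GC and length correction. EIF3F with knockdown under temozolomide lost its call on log2(FPKM + 1) without a filter (-0.13). EIF3K with knockdown under temozolomide lost its call on log2(FPKM + 1) without a filter (-0.23).

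With temozolomide EIF3B and EIF3D had the largest falls among the eIF3 genes called in control cells. EIF3B, a core scaffold subunit, was at 288, 287 and 282 CPM in knockdown temozolomide and 272, 268 and 264 CPM in control temozolomide libraries, against 334, 342 and 336 CPM in knockdown DMSO and 332, 322 and 322 CPM in control DMSO libraries. All 6 temozolomide libraries lay below all 6 DMSO libraries, with changes of -0.28 (SE 0.031, adjusted p = 1.12e-06) in control and -0.24 (SE 0.031, adjusted p = 7.94e-06) in knockdown cells. EIF3D, the subunit that can bind caps itself, was at 196, 178 and 189.8 CPM in knockdown temozolomide and 187, 178 and 181 CPM in control temozolomide libraries, against 222, 212 and 205 CPM in knockdown DMSO and 234, 216 and 219.5 CPM in control DMSO libraries. Again the temozolomide libraries lay below the DMSO libraries. It changed by -0.29 (SE 0.042, adjusted p = 2.75e-05) in control cells and by -0.18 (adjusted p = 0.00457) in knockdown cells. With knockdown EIF3D was at -0.07 under DMSO and 0.04 under temozolomide, and not called. EIF3K, a peripheral subunit, changed with temozolomide by -0.25 (SE 0.053, adjusted p = 0.00152) in control cells and was at -0.06 (adjusted p = 0.45) in knockdown cells. EIF3H changed with temozolomide by -0.19 (adjusted p = 0.000111) in control cells, and by -0.22 (adjusted p = 3.56e-05) in knockdown cells. EIF3M changed by -0.16 (adjusted p = 0.0012) and -0.18 (adjusted p = 0.000656). Of the 14 genes 9 fell and 0 rose in control cells and 6 fell and 0 rose in knockdown cells. Of all tested genes 15.8% fell and 11.7% rose in control cells, and 13.2% fell and 9.05% rose in knockdown cells. EIF3A, the largest subunit, was at -0.09 (adjusted p = 0.0418) in knockdown cells. EIF3C with temozolomide in control cells lost its call on library totals alone (-0.06) and on log2(FPKM + 1) (0.06). EIF3G with temozolomide in control cells lost its call on library totals alone (-0.06), after GC and length correction (-0.03), on log2(FPKM + 1) (-0.07) and without any 1 of control DMSO 1 and 3 and control temozolomide 2 and 3 (-0.14 to -0.08). EIF3H with temozolomide in control cells lost its call on log2(FPKM + 1) (-0.05), and was still called at -0.12 on library totals alone. EIF3I with temozolomide in control cells lost its call on library totals alone (-0.07) and on log2(FPKM + 1) (-0.10). EIF3K with temozolomide in control cells lost its call on log2(FPKM + 1) (-0.18). EIF3L with temozolomide in control cells lost its call on library totals alone (-0.04) and on log2(FPKM + 1) (-0.02). EIF3M with temozolomide in control cells lost its call on log2(FPKM + 1) (-0.08), and was still called at -0.10 on library totals alone and -0.25 after GC and length correction. EIF3A with temozolomide in knockdown cells lost its call on library totals alone (-0.03), after GC and length correction (-0.06), on log2(FPKM + 1) (-0.02) and without any 1 of knockdown DMSO 1, 2 and 3 and knockdown temozolomide 1, 2 and 3 (-0.10 to -0.08). EIF3D with temozolomide in knockdown cells lost its call on log2(FPKM + 1) (-0.11), and was still called at -0.11 on library totals alone. EIF3E with temozolomide in knockdown cells lost its call on log2(FPKM + 1) (-0.11), and was still called at -0.11 on library totals alone. EIF3M with temozolomide in knockdown cells lost its call on log2(FPKM + 1) (-0.10), and was still called at -0.12 on library totals alone.

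Of the 9 tested start-selection and joining factors 3 rose and 0 fell with knockdown under DMSO, and 3 rose and 1 fell under temozolomide. Of all tested genes 21.1% rose and 21.4% fell under DMSO, and 22% rose and 20.3% fell under temozolomide. After GC and length correction the counts of the 9 factors that rose and fell were 3 and 2 under DMSO and 4 and 1 under temozolomide. EIF1, which keeps the scanning ribosome from stopping at wrong codons, was at 408, 413 and 409.5 CPM in knockdown temozolomide against 386, 398 and 367 CPM in control temozolomide, and at 385, 390.4 and 389.6 CPM in knockdown DMSO against 348, 333 and 349 CPM in control DMSO libraries. Every knockdown library lay above the control libraries of the same treatment. It rose by 0.18 (SE 0.034, adjusted p = 0.000221) under DMSO and by 0.10 (adjusted p = 0.0236) under temozolomide. EIF5, the GTPase-activating partner of eIF2 that acts against eIF1 in start selection, rose by 0.15 (adjusted p = 0.000753) under DMSO and by 0.10 (adjusted p = 0.0205) under temozolomide. EIF6, which holds large subunits apart from small ones, was at 97.5, 87.0 and 90.7 CPM in knockdown temozolomide against 80.6, 81.1 and 80.5 CPM in control temozolomide libraries and rose by 0.18 (adjusted p = 0.00942), with 0.10 (adjusted p = 0.152) under DMSO. EIF5 with knockdown under DMSO lost its call after GC and length correction (0.06). EIF1 with knockdown under temozolomide lost its call on log2(FPKM + 1) (0.05) and without control temozolomide 3 (0.07) or knockdown temozolomide 2 (0.09). EIF5 with knockdown under temozolomide lost its call without control temozolomide 1 (0.09) or 2 (0.09) or knockdown temozolomide 2 (0.09). EIF6 with knockdown under temozolomide lost its call without knockdown temozolomide 1 (0.13).

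With temozolomide EIF1 and its paralogue EIF1B rose in control cells, by 0.16 (SE 0.034, adjusted p = 0.00122) and 0.26 (SE 0.068, adjusted p = 0.00592). In knockdown cells EIF1 was at 0.08 (adjusted p = 0.0971) and EIF1B at 0.18 (adjusted p = 0.0531), neither called. EIF1B was at 32.4, 35.6 and 33.8 CPM in control temozolomide against 29.5, 25.3 and 29.7 CPM in control DMSO libraries, without overlap. EIF6 and EIF2A, an alternative carrier of the first tRNA, fell. EIF6 changed by -0.26 (adjusted p = 0.000977) in control cells and by -0.18 (adjusted p = 0.02) in knockdown cells. EIF2A changed by -0.14 (adjusted p = 0.0138) and by -0.19 (adjusted p = 0.00232). EIF5B, EIF2D and EIF1AD were called in none of the comparisons of 2 groups. EIF1 with temozolomide in control cells was still called at 0.29 on log2(FPKM + 1). EIF2A with temozolomide in control cells lost its call on library totals alone (-0.07), on log2(FPKM + 1) (-0.02) and without control DMSO 1 (-0.10) or control temozolomide 1 (-0.12), and was still called at -0.22 after GC and length correction. EIF6 with temozolomide in control cells lost its call on log2(FPKM + 1) without a filter (-0.19), and was still called at -0.17 after GC and length correction. EIF2A with temozolomide in knockdown cells lost its call on log2(FPKM + 1) (-0.09), and was still called at -0.12 on library totals alone. EIF6 with temozolomide in knockdown cells lost its call on library totals alone (-0.12), on log2(FPKM + 1) (-0.12) and without any 1 of knockdown DMSO 1 and 2 and knockdown temozolomide 2 and 3 (-0.17 to -0.14).

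The eIF2 and eIF2B genes, the point at which stress kinases stop initiation, changed by at most 0.24 (log2) with knockdown. EIF2S1, the alpha subunit that those kinases phosphorylate, was at 133, 136 and 135 CPM in knockdown temozolomide, 130, 131 and 131 CPM in control temozolomide, 146, 141 and 153 CPM in knockdown DMSO and 133, 134 and 134 CPM in control DMSO libraries. Knockdown DMSO was the highest group, and the change with knockdown was 0.13 (adjusted p = 0.00438) under DMSO and 0.04 (adjusted p = 0.342) under temozolomide. EIF2S2, the beta subunit, rose by 0.13 (SE 0.034, adjusted p = 0.00307) with knockdown under DMSO. EIF2B3, a subunit of the exchange factor, was at 48.4, 47.4 and 47.1 CPM in knockdown temozolomide against 38.8, 40.8 and 41.5 CPM in control temozolomide, and at 46.4, 46.3 and 46.2 CPM in knockdown DMSO against 41.7, 40.3 and 44.8 CPM in control DMSO libraries. Knockdown libraries lay higher, without overlap. It rose by 0.24 (SE 0.05, adjusted p = 0.000471) under temozolomide, and by 0.13 (adjusted p = 0.046) under DMSO. EIF2B5, the catalytic subunit, fell with knockdown under DMSO by 0.18 (log2, adjusted p = 0.00454). EIF2B1 fell there by 0.13 (log2, adjusted p = 0.0239). EIF2S1 with knockdown under DMSO lost its call after GC and length correction (0.03). EIF2S2 with knockdown under DMSO was still called at 0.09 after GC and length correction. EIF2B1 with knockdown under DMSO lost its call on library totals alone (-0.09), on log2(FPKM + 1) (-0.07) and without control DMSO 1 (-0.09) or knockdown DMSO 2 (-0.09). EIF2B3 with knockdown under DMSO lost its call in DESeq2 (0.13) and without any 1 of control DMSO 1 and 2 and knockdown DMSO 1, 2 and 3 (0.10 to 0.13). EIF2B5 with knockdown under DMSO lost its call on log2(FPKM + 1) (-0.15).

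With temozolomide EIF2S3, the gamma subunit that binds GTP and the tRNA, was at 484, 493 and 479.9 CPM in knockdown temozolomide against 553, 565 and 555 CPM in knockdown DMSO libraries and changed by -0.20 (SE 0.03, adjusted p = 5.67e-05). In control cells it changed by -0.09 (adjusted p = 0.0303). EIF2S1 in knockdown cells changed by -0.12 (adjusted p = 0.0167). EIF2B5 changed by -0.24 (adjusted p = 0.000668) in control cells, and by -0.15 (adjusted p = 0.0231) in knockdown cells. EIF2S2 rose by 0.10 (adjusted p = 0.0413) in control cells. EIF2B2, EIF2B4 and EIF2S3B were called in none of the comparisons of 2 groups. EIF2S2 with temozolomide in control cells lost its call without any 1 of control DMSO 1 and 2 and control temozolomide 1 and 2 (0.08 to 0.10), and was still called at 0.16 on library totals alone and 0.16 on log2(FPKM + 1). EIF2S3 with temozolomide in control cells lost its call on library totals alone (-0.02), on log2(FPKM + 1) (-0.02) and without any 1 of control DMSO 1 and 2 and control temozolomide 1, 2 and 3 (-0.09 to -0.07). EIF2B5 with temozolomide in control cells lost its call on log2(FPKM + 1) (-0.10). EIF2S1 with temozolomide in knockdown cells lost its call on library totals alone (-0.06), on log2(FPKM + 1) (0.02) and without knockdown DMSO 3 (-0.10) or knockdown temozolomide 1 (-0.12). EIF2B5 with temozolomide in knockdown cells lost its call on library totals alone (-0.09), on log2(FPKM + 1) (-0.12) and without knockdown DMSO 1 (-0.14) or knockdown temozolomide 1 (-0.14) or 3 (-0.13).

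EIF1AX, which works with EIF1 in scanning, had opposite calls in the knockdown comparisons. It was at 310.5, 314 and 346 CPM in knockdown temozolomide, 338, 364 and 346 CPM in control temozolomide, 355, 345 and 352 CPM in knockdown DMSO and 328, 324 and 316 CPM in control DMSO libraries. Control DMSO libraries and 2 of 3 knockdown temozolomide libraries were lowest. With knockdown it changed by 0.12 (adjusted p = 0.0176) under DMSO and -0.11 (adjusted p = 0.0255) under temozolomide, and with temozolomide by 0.11 (adjusted p = 0.0349) in control and -0.12 (adjusted p = 0.0346) in knockdown cells. The difference between the temozolomide responses, knockdown minus control, was -0.23 (SE 0.056, adjusted p = 0.0474), the only one called among the 54 members by edgeR, where 1.05% of all tested genes were called, 0.437% as a rise and 0.616% as a fall, and 12 of the 54 members (22.2%) had an unadjusted p under 0.05, against 17.8% of all tested genes. DESeq2 called 4 members, EIF1AX with EIF2S2 (-0.18), EIF3I (0.17) and EIF4A2 (-0.17), of which the last 3 were named after their values were seen. Each of these calls was lost under several settings. EIF1AX in the difference between the temozolomide responses lost its call after GC and length correction (-0.09), on log2(FPKM + 1) (-0.22) and without any 1 of control DMSO 1 and 3, control temozolomide 2 and 3, knockdown DMSO 1, 2 and 3 and knockdown temozolomide 1 and 2 (-0.25 to -0.20). EIF1AX with knockdown under DMSO lost its call after GC and length correction (-0.02) and without control DMSO 3 (0.11) or knockdown DMSO 1 (0.11), and was still called at 0.20 on log2(FPKM + 1). EIF1AX with knockdown under temozolomide lost its call on library totals alone (-0.08), on log2(FPKM + 1) (-0.02) and without control temozolomide 2 (-0.08) or knockdown temozolomide 1 (-0.09) or 2 (-0.09). EIF1AX with temozolomide in control cells lost its call after GC and length correction (-0.01) and without any 1 of control DMSO 1 and 3 and control temozolomide 2 and 3 (0.09 to 0.13), and was still called at 0.18 on library totals alone and 0.22 on log2(FPKM + 1). EIF1AX with temozolomide in knockdown cells lost its call on library totals alone (-0.06), on log2(FPKM + 1) (0.00) and without any 1 of knockdown DMSO 1 and 3 and knockdown temozolomide 1 and 2 (-0.12 to -0.09).

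The 2 knockdown comparisons share no library, so the members can be set side by side. Of the 54 tested, 13 fell in both (24.1%, against 14.1% of all tested genes) and 4 rose in both (7.41%, against 15%), namely EIF1, EIF2B3, EIF5 and EIF5A2. The 13 were EEF1A1, EEF1B2, EEF1D, EEF1G, EEF2, EIF3C, EIF3F, EIF3H, EIF3K, EIF3L, EIF4A1, EIF4A2 and EIF4B. The sign was the same in both for 40 members (74.1%), against 77.1% of all tested genes. The comparisons with temozolomide share no library either, and 14 members fell in both of them (25.9%, against 8.57% of all tested genes) and 2 rose in both, EIF4E3 and EIF5A2 (3.70%, against 4.07%).

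**Figure D4:**
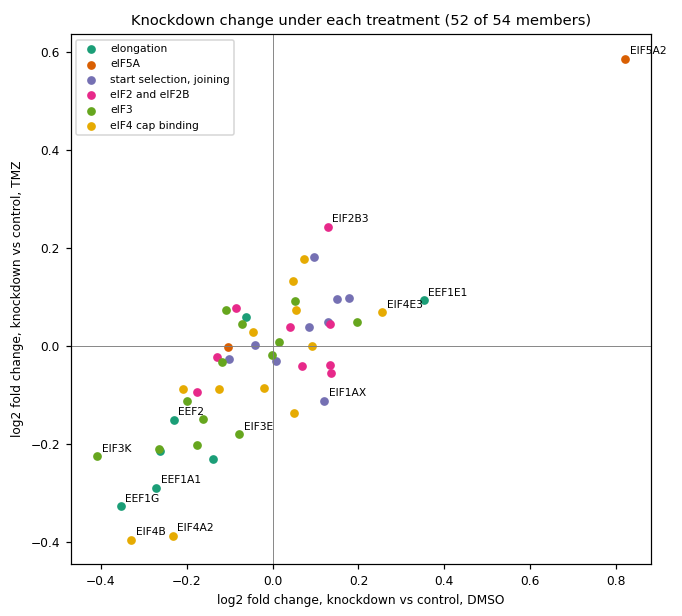
Log2 fold change of knockdown against control under temozolomide (vertical) against that under DMSO (horizontal) for 52 of the 54 tested members, coloured by role; the axes stop short of EEF1A2 and EIF3CL, whose counts are low. EIF5A2 lies far up on the right, and EEF1A1, EEF1G, EIF4B, EIF4A2 and EIF3K lie low on the left.

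On TMM-scaled counts the members with a C and pyrimidine run at the annotated start fell in 7 to 9 of 13 cases, and none rose. The RefSeq table held a start for 48 of the 58 members, and it gave none for EEF1A2, EEF1AKNMT, EEF1D, EIF2S2, EIF3A, EIF3CL, EIF3E, EIF3G, EIF3H and EIF3L. The motif searched was a C at the first transcribed base followed by at least 4 of C or T, on the transcribed strand and at that position alone. It was held by 4.07% of 35116 annotated starts, by 7.47% of the 10281 tested genes with a start, and by 13 members: EEF1A1, EEF1B2, EEF2, EIF2A, EIF2D, EIF2S3, EIF2S3B, EIF3D, EIF3F, EIF3K, EIF3M, EIF4A2 and EIF4B. A gene was counted if any of its annotated starts held the run, and EEF1B2 and EIF2S3B each have another start without it. Under DMSO, knockdown raised 0 of these 13 and 7 fell, with a median change of -0.14, while of the 31 tested members with another start 9 rose and 8 fell, with a median of 0.05. Among all tested genes with the run 15.6% rose and 32.4% fell, against 21.8% and 20.7% of those without it. Under temozolomide 0 of the 13 rose and 7 fell (median -0.15), against 9 and 6 of the 31 (median 0.04), with 15.1% and 31.5% of all tested genes with the run and 23.0% and 19.5% without it. With temozolomide 0 rose and 8 fell in control cells (median -0.09), against 5 and 10 of the 31 (median -0.04), with 9.24% and 17.6% of all tested genes with the run and 12.2% and 15.5% without it. In knockdown cells 0 rose and 9 fell (median -0.18), against 2 and 11 of the 31 (median -0.03), with 5.99% and 15.8% of all tested genes with the run and 9.39% and 12.7% without it. The falls with temozolomide depended on the scaling. On log2(FPKM + 1), only EEF2 and EIF3D of those with the run kept the call in control cells, and EIF2S3 and EIF4A2 in knockdown cells. Of the falls with knockdown only EEF1B2 under DMSO lost its call there. When members and cytosolic ribosomal proteins were left out, 27.7% and 26.7% of the tested genes with the run fell with knockdown under DMSO and temozolomide, and 16.95% and 14.97% with temozolomide in control and knockdown cells. Of 47 cytosolic ribosomal protein genes with the run 46 fell with knockdown under either treatment. With temozolomide 7 of the 47 fell in control cells and 6 in knockdown cells. Of all 82 such genes, with the run or not, 79, 77, 19 and 14 fell in the same order of comparisons. EEF1G fell although its annotated start is an A, and a match is a description of the annotated letters, not of the starts used in these cells. The difference between the 2 sets of members was not tested.

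**Figure D5:**
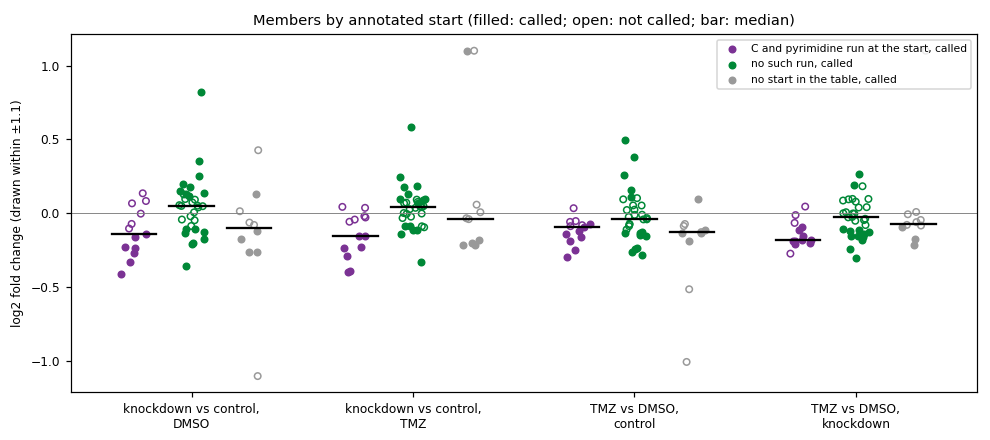
Log2 fold change of the 54 tested members in 4 comparisons, split into 13 with a C and pyrimidine run at the annotated start, 31 with another start and 10 with no start in the table; filled points were called, open points were not, and bars are medians. No member with the run was called higher in any of the 4 comparisons.

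Of 10 members known as TOP mRNAs (EEF1A1, EEF1A2, EEF1B2, EEF1D, EEF1G, EEF2, EIF3E, EIF3F, EIF3H and EIF4B) 8 fell and 0 rose with knockdown under DMSO (median -0.20), and 9 fell and 1, EEF1A2, rose under temozolomide (median -0.21). With temozolomide 6 fell and 0 rose in control cells (median -0.12), and 7 fell and 0 rose in knockdown cells (median -0.11). Of all tested genes 21.4%, 20.3%, 15.8% and 13.2% fell in these 4 comparisons. Of 9 other listed genes known as TOP mRNAs, which include the ribosomal protein genes FAU and RACK1, 6 fell and 0 rose with knockdown under DMSO and 7 fell and 0 rose under temozolomide. With temozolomide 3 fell in control and 6 in knockdown cells, and 0 rose. Without FAU and RACK1, 4, 6, 2 and 5 of the remaining 7 fell in the same order of comparisons, and 0 rose. Both lists of TOP mRNAs were written with earlier results of these data known and need not be complete. Their counts hold for the listed genes alone. Among them FAU, which encodes a ribosomal protein fused to a ubiquitin-like one, changed by -0.42 (SE 0.063, adjusted p = 1.71e-05) under DMSO, and HNRNPA1, an RNA-binding protein, by -0.39 (SE 0.035, adjusted p = 1.74e-08) under temozolomide.

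The members together took 2.48% to 2.51% of all counts in knockdown temozolomide libraries, 2.71% to 2.72% in control temozolomide libraries, 2.52% to 2.56% in knockdown DMSO libraries and 2.72% to 2.79% in control DMSO libraries. Knockdown and control did not overlap under either treatment, in a design where the smallest 2-sided exact permutation p is 0.1. EEF1A1 alone took 0.832% to 0.852%, 0.993% to 1.02%, 0.842% to 0.869% and 0.984% to 1.02% in the same groups. The ratio of paralogues, in log2 FPKM, was compared for 6 pairs in 4 comparisons, 24 in all, and none could pass a threshold of 0.05, with a smallest adjusted p of 0.2. EIF5A2 to EIF5A was -4.29 ± 0.03 in knockdown temozolomide, -4.83 ± 0.16 in control temozolomide, -4.92 ± 0.20 in knockdown DMSO and -5.50 ± 0.37 in control DMSO libraries (SD, n = 3 each), with overlap of the knockdown and control groups under DMSO. EIF4A2 to EIF4A1 was -2.47 ± 0.03 in knockdown temozolomide against -2.15 ± 0.11 in control temozolomide libraries, a difference of -0.32 without overlap, and -2.36 ± 0.02 in knockdown DMSO against -2.27 ± 0.08 in control DMSO libraries, which overlapped. EIF4E2 to EIF4E was -0.23 ± 0.05 in knockdown temozolomide against -0.39 ± 0.01 in control temozolomide libraries, without overlap. For EIF4G3 to EIF4G1 and EIF1B to EIF1 the knockdown and control libraries overlapped under both treatments.

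Regulators of the factors were listed beside them. Of 11 tested kinases, binding proteins and phosphatase subunits that act on eIF2, eIF4E, eIF4A or eEF2, 3 rose and 4 fell with knockdown under DMSO and 2 rose and 3 fell under temozolomide. For these and the other listed genes, the shares of all tested genes were 21.1% rising and 21.4% falling with knockdown under DMSO, 22% and 20.3% under temozolomide, 11.7% and 15.8% with temozolomide in control cells, and 9.05% and 13.2% in knockdown cells. EIF2AK2, the eIF2 kinase that senses double-stranded RNA, was at 266, 215 and 221 CPM in knockdown temozolomide, 214, 229 and 222 CPM in control temozolomide, 284, 296 and 291 CPM in knockdown DMSO and 213, 224 and 189 CPM in control DMSO libraries. Knockdown DMSO stood above the other 3 groups, with a rise of 0.48 (SE 0.063, adjusted p = 3.26e-06) under DMSO and a value of 0.08 (adjusted p = 0.321) under temozolomide. EEF2K, which phosphorylates and slows eEF2, was at 53.5, 58.2 and 54.8 CPM in knockdown temozolomide against 68.3, 70.8 and 65.5 CPM in control temozolomide, and at 50.9, 56.0 and 57.9 CPM in knockdown DMSO against 71.8, 71.4 and 71.8 CPM in control DMSO libraries. It fell by 0.38 under DMSO (SE 0.051, adjusted p = 3.67e-06) and by 0.29 under temozolomide (SE 0.05, adjusted p = 7.1e-05). PDCD4, an inhibitor of eIF4A, changed by -0.41 (SE 0.055, adjusted p = 4.38e-06) under temozolomide and by -0.16 (adjusted p = 0.0227) under DMSO. EIF4EBP1, which holds eIF4E away from eIF4G, changed by -0.33 (adjusted p = 0.000752) under DMSO and by -0.17 (adjusted p = 0.0582) under temozolomide. PPP1R15A, the stress-induced subunit of the phosphatase that restores eIF2, rose by 0.49 (SE 0.084, adjusted p = 6.51e-05) under DMSO and 0.57 (SE 0.082, adjusted p = 8.33e-06) under temozolomide, and PPP1R15B, its constitutive counterpart, by 0.27 (adjusted p = 4.25e-05) under DMSO and 0.22 (adjusted p = 0.000222) under temozolomide. PDCD4 with knockdown under DMSO lost its call on library totals alone (-0.12), on log2(FPKM + 1) (-0.09) and without any 1 of control DMSO 2 and 3 and knockdown DMSO 1 and 2 (-0.16 to -0.14), and was still called at -0.25 after GC and length correction. EIF4EBP1 with knockdown under DMSO lost its call after GC and length correction (-0.13). PPP1R15B with knockdown under DMSO was still called at 0.18 after GC and length correction. EEF2K with knockdown under temozolomide lost its call on log2(FPKM + 1) (-0.16).

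In the mTOR pathway and MNK list 8 of 22 rose and 10 fell with knockdown under DMSO, where 42.6% of all tested genes were called, and 7 rose and 7 fell under temozolomide, where 42.3% were. DDIT4, a stress-induced inhibitor of mTORC1, was at 165, 173 and 159.6 CPM in knockdown temozolomide against 261, 266 and 246 CPM in control temozolomide, and at 196, 199.7 and 177 CPM in knockdown DMSO against 279.7, 266 and 304 CPM in control DMSO libraries. It lay lower in every knockdown library. It changed by -0.57 (SE 0.05, adjusted p = 9.3e-09) under DMSO and -0.63 (SE 0.05, adjusted p = 2.26e-09) under temozolomide. RRAGC, a GTPase that brings mTORC1 to the lysosome, rose by 0.43 (adjusted p = 2.39e-06) under DMSO and 0.40 (adjusted p = 3.67e-06) under temozolomide, and MTOR itself by 0.21 (adjusted p = 9.07e-05) and 0.35 (adjusted p = 7.33e-08). RRAGA changed by -0.25 (adjusted p = 1.81e-05) under DMSO and -0.13 (adjusted p = 0.00672) under temozolomide. RPTOR and MLST8 changed by -0.25 each under DMSO (adjusted p = 0.00101 and 0.0033). Under temozolomide they were at 0.01 and -0.07, not called. TSC1 rose by 0.27 (adjusted p = 0.000492) under DMSO and 0.29 (adjusted p = 0.000161) under temozolomide. RPTOR, MLST8 and TSC1 were named here after their values were seen. With temozolomide LARP1, the TOP mRNA-binding protein, changed by -0.18 (adjusted p = 0.000265) in control and -0.17 (adjusted p = 0.000689) in knockdown cells. Of the 22 cytosolic tRNA synthetase genes and their scaffolds 8 fell and 1 rose with knockdown under either treatment, and with temozolomide 13 fell and 0 rose in control cells and 11 fell and 0 rose in knockdown cells. VARS1, the valine enzyme, changed with temozolomide by -0.45 (SE 0.039, adjusted p = 3.39e-08) in control cells and -0.23 (adjusted p = 0.000197) in knockdown cells. A list of 11 termination and recycling genes also held ABCF1, DDX3X and DHX29, which act in initiation. Of these 11 genes 5 rose under DMSO with knockdown, ABCF1 and DDX3X among them, and 2 fell, DHX29 among them. Under temozolomide 3 rose, ABCF1 among them, and 1 fell. Of 10 mitochondrial translation factors 0 rose in any of the 4 comparisons and 3, 1, 1 and 1 fell. DHX29, a helicase for structured leaders, rose with temozolomide by 0.26 (SE 0.048, adjusted p = 0.000381) in control and 0.33 (SE 0.049, adjusted p = 3.99e-05) in knockdown cells.
LARP1 with temozolomide in control cells was still called at -0.12 on library totals alone. LARP1 with temozolomide in knockdown cells lost its call on log2(FPKM + 1) (-0.09), and was still called at -0.11 on library totals alone. VARS1 with temozolomide in knockdown cells lost its call on log2(FPKM + 1) (-0.15).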

How the data were processed

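Poly(A) RNA of 12 U251 libraries, 3 in each of 4 groups, was sequenced on an Illumina instrument, per the labels' protocols. The authors deposited estimated counts per gene, of which 10.7% to 12.0% of values in a library were not whole, and FPKM values, scaled for length and depth by the authors. The submitters' processing notes name RSEM, StringTie 1.3.1, HISAT2, Bowtie2 2.2.8 and fastp 0.18.0, with no role for each; build and gene annotation: not given in the sources used here. Libraries whose titles carry NC were read as control hairpin.

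Estimated counts were rounded to whole numbers and tested with edgeR 4.0.16 in R 4.3.3 (filterByExpr, TMM, quasi-likelihood test, 4 group means over all 12 libraries). P-values were adjusted by Benjamini-Hochberg over the 12821 of 20289 genes that passed the filter, with calls at 0.05. CPM values are TMM-scaled, and levels were compared between genes in FPKM. Totals of 13506946 to 24757977 make 3 counts equal to 0.121 to 0.222 CPM, and the biological coefficient of variation was 3.90%. Ratios of paralogues were compared by exact 2-sided permutation tests.

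The alternatives were RLE factors, library totals alone, 2 other filters, a replicate block, a correction for GC content and length, fits of the compared groups alone, unrounded counts, DESeq2 1.42.0, limma 3.58.1 on log2(FPKM + 1) and log2(FPKM + 0.1), and each library left out. GC content, length and annotated starts were joined by gene identifier or symbol.

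The members and the lists were chosen with earlier results of these data known. The genes described are, per role and comparison, up to 3 called members each way with the largest change, a few core factors in every case, and up to 2 called genes each way per context list. Other called members, genes called in the difference from the context lists, and RPTOR, MLST8 and TSC1 were added after their values were seen.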

Additional observations from a re-analysis of the deposited data

Results flagged for a closer look

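The temozolomide response differed between knockdown and control cells, by edgeR's test of the difference itself, for 1 member and 3 genes of the context lists, 2 of which, HNRNPA1 and RPS6KB2, were named after their values were seen. EIF1AX had a difference of -0.23 (knockdown minus control, adjusted p = 0.0474). EIF2AK2 had a difference of -0.40 (adjusted p = 0.0388), with a change of -0.31 in knockdown cells. HNRNPA1, an RNA-binding protein with a TOP mRNA, had a difference of -0.23 (adjusted p = 0.0346) and was at 1440, 1495 and 1593 CPM in knockdown temozolomide, 1893, 2026 and 2003 CPM in control temozolomide, 1697, 1694 and 1673 CPM in knockdown DMSO and 1841, 1867 and 1944 CPM in control DMSO libraries. RPS6KB2, a kinase of ribosomal protein S6, had a difference of 0.30 (adjusted p = 0.0429) and was at 58.1, 57.3 and 56.8 CPM in knockdown temozolomide, 55.3, 53.0 and 50.6 CPM in control temozolomide, 52.5, 52.8 and 48.9 CPM in knockdown DMSO and 58.7, 55.8 and 60.6 CPM in control DMSO libraries. The calls of EIF1AX, EIF2AK2, HNRNPA1 and RPS6KB2 were lost in 14, 13, 13 and 14 of 24 alternatives. After correction for GC content and length the differences were -0.09, -0.30, -0.18 and 0.20.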

How the results depend on the processing

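Of 3861 alternative values for 199 gene results, 3362 kept their direction and side of the threshold, 452 lost a call, 35 gained one and 12 changed sign. After correction for GC content and length, EIF1AX was at -0.0151 with knockdown under DMSO and -0.0140 with temozolomide in control cells, the same with a replicate block, and EIF4E with knockdown under DMSO was at -0.1018, or -0.1020 with the block. On log2(FPKM + 1), with and without the filter, and on log2(FPKM + 0.1), temozolomide in knockdown cells gave 0.0001 for EIF1AX each time, and 0.0191, 0.0191 and 0.0194 for EIF2S1. On these 3 FPKM settings 13, 11 and 14 members were called with temozolomide in control cells (28 on counts), and 10, 4 and 10 in knockdown cells (25 on counts). In the difference, where 1 member was called, the count was 4 without a filter and 4 in DESeq2, and 0 after GC and length correction with or without the block, on the 3 FPKM settings and at an adjusted p below 0.01. Leaving out 1 library gave 25 to 29 members with knockdown under DMSO, 19 to 26 under temozolomide, 20 to 27 with temozolomide in control cells, 19 to 22 in knockdown cells and 0 to 2 in the difference. In CPM instead of FPKM, EEF1A2 to EEF1A1 moved from 1.3385 to 0.7162 with knockdown under DMSO. With temozolomide in knockdown cells it changed sign, from -0.5749 to 0.0518. EIF5A2 to EIF5A moved from 0.5744 to 0.9195 and from 0.6333 to 0.4040 in the same comparisons. EIF4E2 to EIF4E moved from 0.037 to 0.0687 with temozolomide in control cells. EIF1B to EIF1 with knockdown under temozolomide also changed sign, from 0.031 to -0.0488. As a share of summed FPKM the members' difference with knockdown was -0.156 percentage points under DMSO and -0.173 under temozolomide. For changes whose setting alone does not show it, the cause was not tested. Library totals alone shifted the median of all genes by 0.04 to 0.0668 (log2). A replicate block gave 29, 27, 29, 25 and 1 called members in the 4 comparisons and the difference, and 32, 29, 30, 28 and 0 with the GC and length correction added. The labels do not state that a replicate number marks a shared culture or day: deviations of the 18 same-numbered pairs correlated at -0.077 to 0.136, and the best partner carried the same number for 6 of 12 libraries.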
